A study of Homo sapiens with 9 samples.

Results

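The integrated stress response is a signalling route by which a cell slows general protein synthesis and switches on a set of rescue genes. Kinases that sense amino acid shortage, unfolded protein in the endoplasmic reticulum, haem shortage, mitochondrial stress or double-stranded RNA phosphorylate the initiation factor eIF2, and translation of most mRNAs then falls while translation of ATF4 mRNA rises. ATF4 protein pairs with other bZIP proteins (transcription factors that bind DNA as dimers through a basic region and a leucine zipper) on amino acid response elements and activates genes of amino acid supply, further transcription factors and inhibitors that wind the response down. The 9 genes described here are its transcription factors and feedback genes: ATF4, ATF5, ATF3, CEBPB, CEBPG and DDIT3 (the protein CHOP) as bZIP factors, NUPR1 as a small chromatin-associated stress protein, TRIB3 as a pseudokinase that inhibits ATF4 and CHOP, and CHAC1 as a cytosolic enzyme that breaks down glutathione. They were taken by gene name from a table of 37118 genes and all 9 were found, each as 1 row.

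The libraries came from A375, a human melanoma cell line, with genotype WT in every library. Cells received metformin, a biguanide diabetes drug that inhibits mitochondrial respiration, at 0 mM, 20 mM or 40 mM, with 3 libraries per dose and 9 in all. No label states how long the cells were exposed, and nothing says that replicates were separate cultures; p-values therefore cover only the scatter among these libraries, part or all of which may be technical. Poly(A) RNA was sequenced, so what follows is about mRNA levels. Protein and its phosphorylation, through which eIF2 and much of ATF4 are controlled, were not measured.

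Promoter windows were searched for the 8 letters TGATGNAA, the core of the C/EBP-ATF response element, and for the 8 letters TGACGTCA of the cAMP response element, because ATF4 and its partners are known to bind them. The windows ran from 250 bases before to 50 bases after each RefSeq start (GRCh38.p14), and both strands were searched. A window was at hand for 8 of the 9 genes, 17 windows in all; NUPR1 had none. The C/EBP-ATF core stood in windows of 3 of these 8 genes, ATF3, CEBPG and CHAC1 (3 of 17 windows), against 1270 of 35116 windows (3.62%) and 1217 of 27305 genes (4.46%) over the whole table. No window of the members held TGACGTCA, which stood in 1.85% of all windows. The sites are printed 5′ to 3′ on the strand of the gene with the match in capitals, and the site of ASNS, the asparagine synthetase gene and a known ATF4 target, is set beside them for comparison.
ATF3: aaaggtcaggaTGATGGAAggctgtcatat
CEBPG: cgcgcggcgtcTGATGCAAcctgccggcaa
CHAC1: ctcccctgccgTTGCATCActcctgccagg
ASNS: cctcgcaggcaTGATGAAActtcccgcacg
The ATF3 site lies at chr1:212565205-212565234 on the plus strand, 191 to 184 bases before the start and upstream of the gene in GENCODE v29. The CEBPG site is at chr19:33374060-33374089 on the plus strand, 42 to 35 bases before the start, in an intron of another GENCODE transcript. The CHAC1 site, at chr15:40953251-40953280 on the plus strand, holds the core on the opposite strand, 209 to 202 bases before the start and inside an exon of another transcript. The ASNS site is at chr7:97872458-97872487 on the minus strand, 68 to 61 bases before the start, in an exon of another transcript. A match describes the letters, and a missing match says only that these letters are not in these windows.

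The deposited counts summed to 65738242 to 75629413 per library. The third 40 mM library was the shallowest and stood apart from its 2 replicates, at -22.6 against 17.7 and 15.2 on the second principal component. It had 4.36% of its counts in mitochondrial genes, against 3.01% and 3.27%. The effect of leaving it out is given below for some of the results only. Of 10 melanoma markers 5 were at a mean of at least 1 FPKM (fragments per kilobase of transcript, scaled to library size), SOX10 highest at 70.7 to 113.5 FPKM, while the pigment genes PMEL, MLANA, TYR, TYRP1 and DCT stayed under 0.6 FPKM in every library. The 10 markers summed to 147.4 to 171.7 FPKM at 0 mM, 164.9 to 170.9 at 20 mM and 166.5 to 201.2 at 40 mM. Of 13 markers of other cell types in the table, LYZ, KRT14 and KRT18 passed 1 FPKM, and the blood markers PTPRC and CD3E and the fibroblast collagen COL3A1 were at or near 0. These 13 summed to 79.3 to 83.1 FPKM at 0 mM, 86.5 to 87.4 at 20 mM and 81.3 to 103.2 at 40 mM, and their part in the results was not tested.

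All 9 genes rose at both doses. At 20 mM against 0 mM each was called higher (9 of 9), against 16.3% of the 12394 genes tested (31.6% were called in either direction), and at 40 mM against 0 mM again 9 of 9 were called higher, against 28.8% (56.2% in either direction). A gene was called where its adjusted p was under 0.05 in edgeR's quasi-likelihood test. Only genes with a mean of at least 1 FPKM over the 9 libraries were tested. NUPR1, at 0.21 to 0.34 FPKM at 0 mM, passed this filter only through its treated libraries, which favours a rise. It is part of every count and median of the 9 given here. In all 9 genes every treated library was above every 0 mM library at either dose, a pattern seen in 25.6% of tested genes at 20 mM and 34.4% at 40 mM. The median log2 fold change of the 9 was 1.33 at 20 mM, against 0.0005 over all genes tested, and 1.91 at 40 mM, against -0.0008. Rises of at least 2-fold with a call were made by 6 of the 9 at 20 mM (0.791% of tested genes) and by the same 6 at 40 mM (2.20%), namely NUPR1, CHAC1, DDIT3, TRIB3, ATF3 and CEBPG. These comparisons share the 0 mM libraries. The 9 genes, and the gene lists set beside them below, were chosen with earlier results of these data known. Their counts beside the shares over all genes are therefore descriptions and not independent tests. In bulk RNA, more cells expressing a gene and more of its RNA per cell cannot be told apart.

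**Figure D1:**
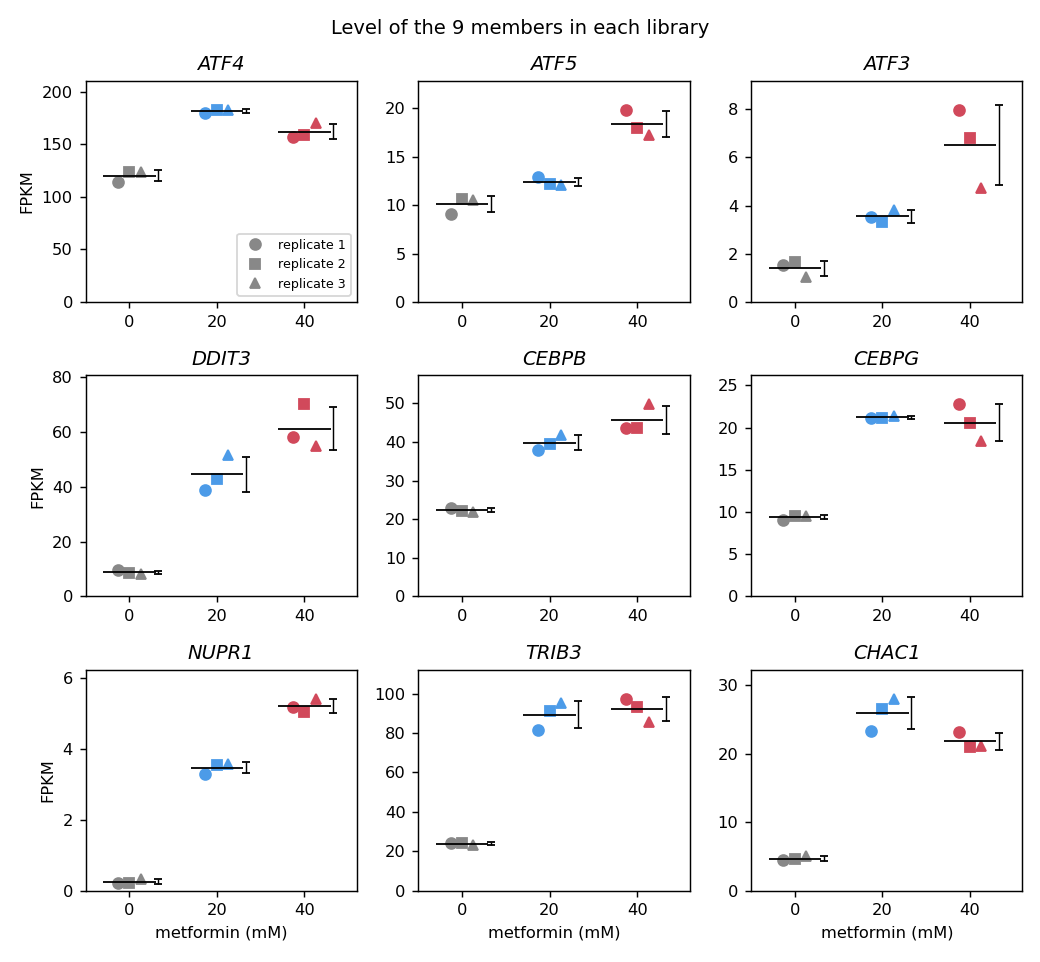
FPKM of each of the 9 genes in each library (y axis, from 0) by metformin dose in mM (x axis); symbols are replicates, the line is the mean and the bar the SD of 3 libraries. In every panel the 20 mM and 40 mM libraries lie above the 0 mM libraries; ATF4 and CHAC1 are highest at 20 mM, and ATF3, ATF5, DDIT3, CEBPB and NUPR1 at 40 mM.

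ATF4 (ENSG00000128272, chromosome 22, 39519672 to 39522683, plus strand) is the central activator of the response. It had the highest level per length of the 9 genes at every dose and one of the smallest relative rises. Its libraries read 113.7, 123.4 and 123.1 FPKM at 0 mM, 179.4, 182.4 and 182.6 FPKM at 20 mM, and 156.7, 158.5 and 169.7 FPKM at 40 mM. The 3 doses do not overlap, and the 20 mM libraries are the highest. The log2 fold change was 0.59 ± 0.04 (SE) at 20 mM against 0 mM (adjusted p = 6.3e-06), or 1.51-fold, and 0.40 ± 0.04 at 40 mM against 0 mM (adjusted p = 2.6e-05). Between doses ATF4 fell at 40 mM against 20 mM by 0.20 (SE 0.04, adjusted p = 0.0074). Its processed pseudogenes, which could take reads from it, held at most 91 counts (ATF4P3).

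ATF5 (ENSG00000169136, chromosome 19, 49928702 to 49933935, plus strand) is a relative of ATF4 with a similar translational control, linked to the mitochondrial stress response. Its libraries read 9.11, 10.6 and 10.5 FPKM at 0 mM, 12.9, 12.2 and 12.1 FPKM at 20 mM, and 19.8, 17.9 and 17.3 FPKM at 40 mM. The 3 doses do not overlap, and the 40 mM libraries are the highest. The log2 fold change was 0.29 ± 0.07 at 20 mM against 0 mM (adjusted p = 0.0083), the smallest of the 9, 0.83 ± 0.07 at 40 mM against 0 mM (adjusted p = 3.1e-06) and 0.54 ± 0.07 at 40 mM against 20 mM (adjusted p = 0.00037). By rank from the largest rise among the 12394 genes, ATF5 stood at 1572 for 20 mM and at 478 for 40 mM, whereas ATF4 stood at 425 for 20 mM and at 1945 for 40 mM. ATF5 shares 1062 bases with NUP62, a nuclear pore gene on the other strand. NUP62 averaged 14.9 ± 0.241 FPKM at 20 mM and 13.8 ± 0.586 at 40 mM, against 16.1 ± 0.591 at 0 mM (SD, n = 3 each), and fell at 40 mM by 0.26 on the log2 scale. The libraries were made to keep strand, but the sources used here do not say whether the counting used it.

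ATF3 (ENSG00000162772, chromosome 1, 212565334 to 212620772, plus strand) is an early stress-induced factor that mostly represses as a homodimer. Its libraries read 1.52, 1.65 and 1.05 FPKM at 0 mM, 3.52, 3.30 and 3.82 FPKM at 20 mM, and 7.98, 6.83 and 4.72 FPKM at 40 mM. The doses do not overlap, but ATF3 had the widest scatter of the 9 at 40 mM, with a coefficient of variation of 25.4%, where the third library is the low one. The log2 fold change was 1.33 ± 0.20 at 20 mM against 0 mM (adjusted p = 0.00062), 2.17 ± 0.20 at 40 mM against 0 mM (adjusted p = 6.4e-06) and 0.84 ± 0.19 at 40 mM against 20 mM (adjusted p = 0.0075). Without the third 40 mM library the last value was 1.03 and that at 40 mM against 0 mM was 2.36, both still called.

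DDIT3 (ENSG00000175197, chromosome 12, 57516588 to 57521737, minus strand) encodes CHOP, a bZIP factor without a normal DNA-binding basic region that is associated with cell death under prolonged stress. Its libraries read 9.49, 8.42 and 8.28 FPKM at 0 mM, 39.0, 42.8 and 51.6 FPKM at 20 mM, and 58.3, 70.0 and 55.0 FPKM at 40 mM. Every 40 mM library was above every 20 mM library, though the highest 20 mM library, at 51.6, was close to the lowest 40 mM library, at 55.0. DDIT3 rose 5.07-fold at 20 mM (log2 fold change 2.34 ± 0.12, adjusted p = 3.7e-07) and 6.82-fold at 40 mM (2.77 ± 0.12, adjusted p = 5.3e-08), and ranked 15 and 20 among the rises of all genes. At 40 mM against 20 mM the log2 fold change was 0.43 ± 0.11 (adjusted p = 0.015). That call was lost without the first 20 mM library (0.34, adjusted p = 0.056), without the second (0.40, adjusted p = 0.058), without the second 40 mM library (0.32, adjusted p = 0.053) and with no filter on low values (adjusted p = 0.057).

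The DDIT3 locus is crowded, which bears on its counts. MARS1, a methionyl-tRNA synthetase gene and itself on the list of ATF4 targets, shares 982 bases with DDIT3 on the other strand, and MBD6, a methyl-CpG-binding domain gene, shares 1028 bases. MARS1 averaged 62.3 ± 1.96 FPKM at 20 mM and 56.7 ± 1.17 at 40 mM, against 41.0 ± 1.63 at 0 mM, and rose by 0.60 ± 0.04 and 0.43 ± 0.04 on the log2 scale. MBD6 rose by 0.41 ± 0.12 at 20 mM and by 0.63 ± 0.12 at 40 mM. In counts MARS1 is the larger gene, at 35094 to 37442 at 20 mM and 28879 to 34367 at 40 mM, against 23294 to 24606 at 0 mM. The part of its reads, or of those of MBD6, in the DDIT3 counts was not tested. The row of the microRNA gene MIR616, which lies inside DDIT3 on the same strand, held 15 to 22 counts at 20 mM and 13 to 21 at 40 mM, against 3 to 4 at 0 mM; reads of DDIT3 and MIR616 cannot be told apart there.

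CEBPB and CEBPG encode 2 C/EBP family factors, CEBPB an activator with several protein forms and CEBPG a short form that serves as a dimer partner of ATF4. CEBPB (ENSG00000172216, chromosome 20, 50190830 to 50192668, plus strand) read 22.9, 22.1 and 22.0 FPKM at 0 mM, 38.1, 39.4 and 41.9 FPKM at 20 mM, and 43.5, 43.7 and 49.8 FPKM at 40 mM. CEBPG (ENSG00000153879, chromosome 19, 33373685 to 33382686, plus strand) read 9.09, 9.56 and 9.47 FPKM at 0 mM, 21.1, 21.1 and 21.4 FPKM at 20 mM, and 22.8, 20.6 and 18.4 FPKM at 40 mM. Both genes are far above their untreated level at each dose, and in CEBPG the 40 mM libraries lie on either side of the 20 mM libraries.

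The log2 fold change of CEBPB was 0.83 ± 0.06 at 20 mM against 0 mM (adjusted p = 6.3e-06) and 1.00 ± 0.06 at 40 mM against 0 mM (adjusted p = 5.2e-07). For CEBPG the log2 fold changes were 1.18 ± 0.07 at 20 mM (adjusted p = 6.2e-07) and 1.10 ± 0.06 at 40 mM (adjusted p = 3.7e-07). Neither differed between the treated doses by the test: CEBPB gave 0.17 ± 0.06 at 40 mM against 20 mM (adjusted p = 0.062) and CEBPG -0.07 ± 0.06 (adjusted p = 0.41). CEBPB sits at the threshold, since it was called with total-count scaling (adjusted p = 0.028), with DESeq2 (0.045) and with limma on FPKM (0.035). The ratio of CEBPB to CEBPG FPKM was 1.80 to 1.96 at 20 mM and 1.91, 2.12 and 2.70 at 40 mM, against 2.31 to 2.52 at 0 mM; the 2.70 is the third 40 mM library, and the other 2 lie below the 0 mM range. An antisense gene, CEBPB-AS1, shares 669 bases with CEBPB and held 66 to 138 counts at 20 mM and 62 to 91 at 40 mM, against 40 to 58 at 0 mM.

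NUPR1 (ENSG00000176046, chromosome 16, 28532708 to 28538974, minus strand) encodes a small, largely unstructured nuclear protein induced by many stresses, and it made the largest relative rise of the 9. It held 99, 104 and 154 counts at 0 mM, 1504, 1564 and 1625 counts at 20 mM, and 2410, 2339 and 2206 counts at 40 mM. Per length that is 0.210, 0.226 and 0.337 FPKM at 0 mM, 3.28, 3.53 and 3.56 FPKM at 20 mM, and 5.17, 5.02 and 5.41 FPKM at 40 mM. The 3 doses are wide apart, and NUPR1 passed the filter on low values only through its treated libraries. The log2 fold change was 3.73 ± 0.14 at 20 mM against 0 mM (13.3-fold, adjusted p = 5.1e-08), 4.29 ± 0.14 at 40 mM against 0 mM (19.6-fold, adjusted p = 1.9e-08) and 0.56 ± 0.12 at 40 mM against 20 mM (adjusted p = 0.006). Among all rises it ranked 7 at 20 mM and 8 at 40 mM. On log2(FPKM + 1), which shrinks low genes, the same changes were 1.83 and 2.30.

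Levels per length depend on the length the authors assigned to each gene. NUPR1's counts and FPKM, taken with the summed counts of each library, correspond to a length of 6095 to 6243 bases, while its GENCODE v29 transcripts run from 550 to 5491 bases. For ATF3 the same figure was 4466 to 4560 bases, with transcripts of 482 to 2103 bases, and for DDIT3 it was 1443 to 1473 bases, with transcripts of 644 to 1067. At 20 mM NUPR1 and ATF3 overlapped in FPKM, but NUPR1 had 1504 to 1625 counts and ATF3 had 1075 to 1280. The implied length was above the longest GENCODE transcript in all 9 genes. For ATF4 it was 3210 to 3281 bases against 2019, and for CEBPB 2027 to 2072 against 1956. In ATF4 and CEBPB it was also above the whole gene span in the deposited coordinates, 3012 and 1839 bases. It therefore cannot be read as a transcript length there. The figure rests on the summed counts as library size, and whether the FPKM values used another total was not tested. The order of levels between genes and the shares and ratios given below still depend on the assigned lengths, which remain unknown. The fold changes of single genes do not depend on them.

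TRIB3 (ENSG00000101255, chromosome 20, 362835 to 397559, plus strand) is a CHOP and ATF4 target whose product binds ATF4 and CHOP and restrains them. Its libraries read 24.2, 24.4 and 23.1 FPKM at 0 mM, 81.6, 91.3 and 95.3 FPKM at 20 mM, and 97.4, 93.4 and 85.6 FPKM at 40 mM. The treated doses overlap, and both are far above 0 mM. The log2 fold change was 1.90 ± 0.07 at 20 mM against 0 mM (3.73-fold, adjusted p = 3.3e-08) and 1.91 ± 0.07 at 40 mM against 0 mM (3.77-fold, adjusted p = 1.9e-08), and that at 40 mM against 20 mM was 0.01 ± 0.06 (adjusted p = 0.91).

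CHAC1 (ENSG00000128965, chromosome 15, 40952962 to 40956512, plus strand) read 4.44, 4.59 and 5.08 FPKM at 0 mM, 23.3, 26.4 and 28.0 FPKM at 20 mM, and 23.2, 21.0 and 21.1 FPKM at 40 mM. Every 20 mM library was above every 40 mM library, by a narrow gap between 23.3 and 23.2. CHAC1 rose 5.50-fold at 20 mM (log2 fold change 2.46 ± 0.08, adjusted p = 3.3e-08) and 4.52-fold at 40 mM (2.18 ± 0.08, adjusted p = 2.1e-08), and ranked 12 at 20 mM and 36 at 40 mM among the rises. At 40 mM against 20 mM it fell by 0.28 (SE 0.07, adjusted p = 0.017). The call was lost without the second 20 mM library (adjusted p = 0.061), the third 20 mM library (0.075) or the second 40 mM library (0.056), with the direction kept.

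**Figure D2:**
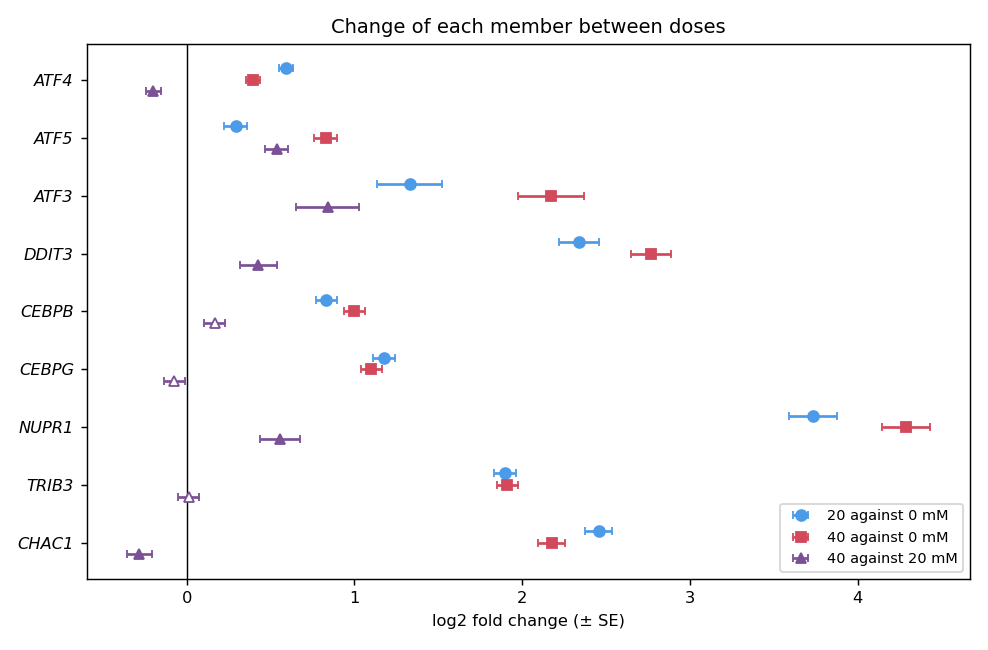
Log2 fold change (x axis) with its SE for each of the 9 genes (y axis) in 3 comparisons; filled symbols are called (adjusted p under 0.05), open ones are not. NUPR1 changes most at both doses, and between the treated doses ATF4 and CHAC1 lie below 0 while ATF3, ATF5, DDIT3 and NUPR1 lie above it.

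The step between the treated doses divided the genes. At 40 mM against 20 mM, where 29.3% of genes tested were called, 4 of the 9 were called higher (ATF3, ATF5, DDIT3 and NUPR1), against 14.3%, 2 were called lower (ATF4 and CHAC1), against 15.1%, and 3 were not called (CEBPB, CEBPG and TRIB3). The median log2 fold change of the 9 was 0.17, against -0.0004 over all genes. In FPKM 5 of the 9 had every 40 mM library above every 20 mM library, CEBPB among them, against 25.9% of genes tested, and ATF4 and CHAC1 had every one below, against 18.0%. With total-count scaling the calls over all genes at this step were 2309 higher and 1447 lower, where TMM scaling gave 1770 higher and 1867 lower, and the 6 calls of the members stood in the same directions. Without the third 40 mM library 6 of the 9 were again called, with ATF4 at -0.24.

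A separate contrast set 20 mM against the midpoint of 0 and 40 mM on the log2 scale, so that a value of 0 means equal steps. A positive value means that the first step, taken with its sign, was above the second. For a gene that rose at 20 mM, that is a rise followed by a smaller rise or by a fall, as in ATF4 and CHAC1. Of the 9 genes 7 were called above the midpoint, against 4.11% of genes tested, and the median was 0.62, against 0.0047 over all genes. The 7 include NUPR1, which was tested only through its treated libraries. NUPR1 (1.59 ± 0.10, adjusted p = 1e-05), CHAC1 (1.37 ± 0.06, adjusted p = 1.9e-06), DDIT3 (0.96 ± 0.09, adjusted p = 0.00018) and TRIB3 (0.94 ± 0.05, adjusted p = 3.4e-06) lay farthest above it. On log2(FPKM + 1) NUPR1 stood at 0.68, so its first place rests on the scale. CEBPG followed at 0.62 ± 0.05, ATF4 at 0.40 ± 0.04 and CEBPB at 0.33 ± 0.05. ATF3 gave 0.24 ± 0.16 (adjusted p = 0.4) and ATF5 gave -0.12 ± 0.06 (adjusted p = 0.24), neither called. This contrast uses the same libraries as the 3 pairwise comparisons and adds no independent measurement.

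Set side by side per length, the order of the genes changed with dose. At 0 mM ATF4 led with a mean of 120.1 FPKM, then came TRIB3 with 23.9 and CEBPB with 22.3, then ATF5, CEBPG and DDIT3 between 8.73 and 10.1 with overlapping neighbours, then CHAC1 with 4.70, ATF3 with 1.41 and NUPR1 with 0.258. At 20 mM ATF4 (181.5) and TRIB3 (89.4) led again, followed by DDIT3 (44.5) and CEBPB (39.8), which overlapped. Below them came CHAC1 (25.9), CEBPG (21.2) and ATF5 (12.4), and last ATF3 (3.55) and NUPR1 (3.46), which overlapped. At 40 mM the means were 161.7 FPKM for ATF4, 92.1 for TRIB3, 61.1 for DDIT3 and 45.7 for CEBPB, each clear of the next. CHAC1 (21.8), CEBPG (20.6) and ATF5 (18.3) formed an overlapping group, and so did ATF3 (6.51) and NUPR1 (5.20). DDIT3 thus held the sixth place at 0 mM and the third at both treated doses, and ATF5 the fourth at 0 mM and the seventh at both treated doses.

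The sum over the 9 genes was 402, 422.5 and 440.2 FPKM at 20 mM and 434.9, 437 and 426.9 FPKM at 40 mM, against 194.6, 205 and 202.9 FPKM at 0 mM. ATF4 made up 41.5 to 44.6% of that sum at 20 mM and 36.0 to 39.8% at 40 mM, against 58.4 to 60.7% at 0 mM. DDIT3 made up 9.69 to 11.7% at 20 mM and 12.9 to 16.0% at 40 mM, against 4.08 to 4.88% at 0 mM. The sum covers much the same range at both treated doses, and its make-up differs. The ratio of ATF4 to DDIT3 was 3.54 to 4.60 at 20 mM and 2.26 to 3.09 at 40 mM, against 12.0 to 14.9 at 0 mM. The ratio of TRIB3, the inhibitor, to DDIT3 was 1.85 to 2.13 at 20 mM and 1.33 to 1.67 at 40 mM, against 2.55 to 2.90 at 0 mM. ATF4 to ATF5 was 14.0 to 15.1 at 20 mM and 7.91 to 9.83 at 40 mM, against 11.6 to 12.5 at 0 mM. These ratios are descriptions from 3 libraries a dose, with no test of their own.

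**Figure D3:**
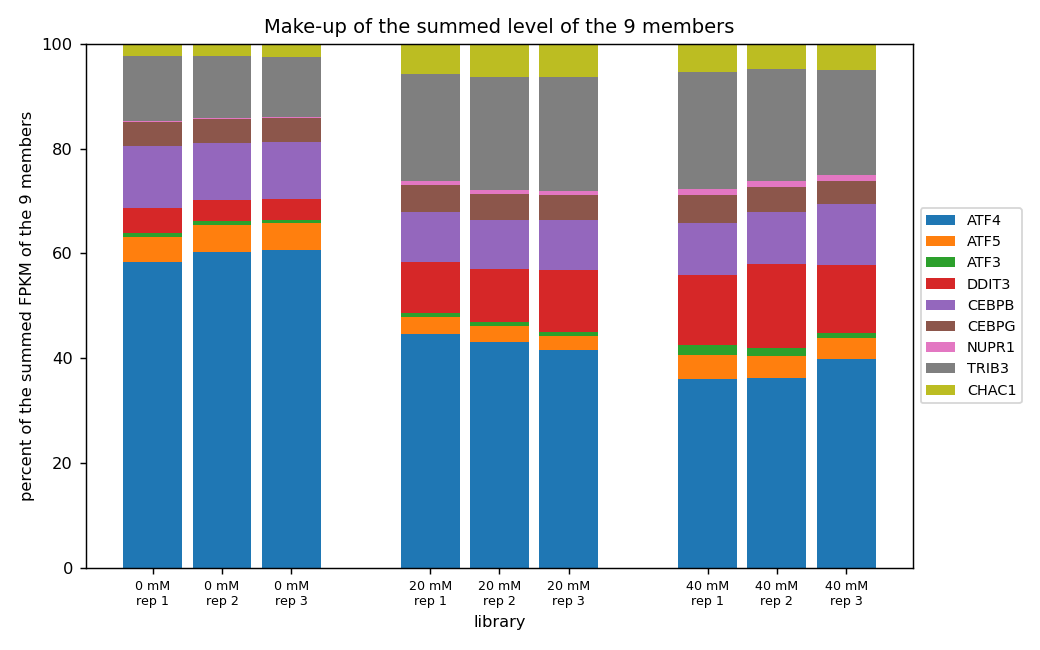
Share of each of the 9 genes in their summed FPKM (y axis, percent, from 0 to 100) in each library (x axis). The ATF4 share shrinks with dose, at 58.4 to 60.7% at 0 mM, 41.5 to 44.6% at 20 mM and 36.0 to 39.8% at 40 mM, and the DDIT3, TRIB3 and CHAC1 shares are wider in treated libraries.

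The genes upstream of ATF4 showed no shared direction. The 22 genes cover the eIF2 kinases and their regulators, the subunits of eIF2 and its exchange factor eIF2B, and the phosphatase reversing the response. At 20 mM against 0 mM 5 were called higher and 6 lower, where 16.3% of genes tested were higher and 15.2% lower. The higher dose gave 7 higher and 8 lower, close to the shares over all genes (28.8% and 27.4%). The median log2 fold changes were -0.04 and -0.05. The highest was PPP1R15A (GADD34), the stress-induced phosphatase subunit that removes the phosphate from eIF2 and so closes the loop that ATF4 opens: it averaged 67.4 ± 1.45 FPKM at 20 mM and 80.3 ± 3.67 at 40 mM, against 32.2 ± 1.04 at 0 mM (SD, n = 3 each), with log2 fold changes of 1.06 ± 0.05 and 1.28 ± 0.05. Its constitutive relative PPP1R15B rose by 0.36 ± 0.04 and 0.60 ± 0.04, and the eIF2 beta subunit EIF2S2 by 0.49 ± 0.04 and 0.41 ± 0.04. The catalytic subunit PPP1CA fell by 0.22 at the lower dose and by 0.33 at the higher.

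The 4 eIF2 kinases, named as a class after their values were seen, did not move together. EIF2AK2 (PKR), the double-stranded RNA sensor, rose by 0.27 ± 0.06 at 20 mM and by 0.42 ± 0.06 at 40 mM. EIF2AK1 (HRI), the haem and mitochondrial stress sensor, fell by 0.18 and by 0.26, and EIF2AK3 (PERK), the endoplasmic reticulum sensor, by 0.26 (adjusted p = 0.04) and by 0.23 (adjusted p = 0.038). The PERK calls are weak: that at 20 mM was lost without any 1 of the 3 libraries at 0 mM or the first or second at 20 mM, and that at 40 mM without any 1 of the 3 at 0 mM or the second or the third at 40 mM (adjusted p = 0.053 to 0.14). EIF2AK4 (GCN2), the amino acid sensor, gave -0.07 ± 0.03 at 20 mM (adjusted p = 0.17) and -0.11 ± 0.03 at 40 mM (adjusted p = 0.023, but 0.052 and 0.077 without the first and the third 0 mM library and 0.2 with total-count scaling). The GCN2 activator GCN1 fell by 0.34 and the GCN2 inhibitor IMPACT by 0.43 at 40 mM. The count of lower genes at 20 mM is not firm: it was 2 or 3 instead of 6 without any 1 of the 6 libraries compared. At 40 mM the count of higher genes was 4 instead of 7 without the second 0 mM library.

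Genes downstream of ATF4 rose almost as a block. Of 41 listed ATF4 targets outside the 9, a list drawn up with results of these data known, 40 passed the filter on low values. Called higher at 20 mM against 0 mM were 39 (median log2 fold change 0.97), against 16.3% of genes tested. At 40 mM against 0 mM 38 were called higher (median 0.79), against 28.8%, and 1 lower, against 27.4%. The targets ADM2 and VLDLR averaged 0.563 and 0.911 FPKM at 0 mM and passed the filter only through their treated libraries. Both are among the genes called higher at each dose. GDF15, a stress cytokine, averaged 12.7 ± 1.02 FPKM at 20 mM and 17.4 ± 2.52 at 40 mM, against 2.31 ± 0.749 at 0 mM. ASNS, whose promoter site is printed above, averaged 62.2 ± 7.04 FPKM at 20 mM and 43.7 ± 2.14 at 40 mM, against 15.5 ± 0.764 at 0 mM. SLC6A9, a glycine transporter, rose by 1.75 ± 0.06 and 1.98 ± 0.06. The gene that fell at 40 mM, IARS1 for isoleucyl-tRNA synthetase, had risen by 0.33 ± 0.04 at 20 mM and fell by 0.17 at 40 mM (adjusted p = 0.0038).

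At 40 mM against 20 mM 21 of these 40 were called lower, against 15.1% of genes tested, and 2 higher, against 14.3%, with a median of -0.17. ATF4 and CHAC1 moved the same way as those 21, and ATF3, ATF5, DDIT3 and NUPR1 the other way. ASNS fell by 0.54 at this step (adjusted p = 0.00059) and IARS1 by 0.50 (adjusted p = 3.9e-05), while SLC6A9 rose by 0.23 ± 0.06 (adjusted p = 0.016, but 0.062 without the first 20 mM library and 0.056 with no filter on low values). In the departure contrast 35 of the 40, with ADM2, VLDLR and IARS1 among them, were called above the midpoint, against 4.11% of genes tested. IARS1, at 0.41, fell more in the second step than it rose in the first. The count of 21 lower ran from 16 to 23 with 1 library left out, and was 16 with no filter and 25 with DESeq2. The count of 2 was 5 without the third 40 mM library and 1 without the first 20 mM library.

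Against 0 mM, every rise among the genes linked to CHOP was smaller than that of DDIT3 itself at the same dose. Of 8 genes of cell death, oxidation and dephosphorylation tied to CHOP, 5 were called higher at 20 mM against 0 mM (16.3% of genes tested), 7 at 40 mM against 0 mM (28.8%) and 6 at 40 mM against 20 mM (14.3%), with medians of 0.27, 0.57 and 0.22. In that last comparison BBC3 (PUMA) and BCL2L11 (BIM), pro-apoptotic BH3 proteins named after their values were seen, gave 0.52 ± 0.13 (adjusted p = 0.013) and 0.50 ± 0.15 (adjusted p = 0.03), where DDIT3 gave 0.43. BBC3 lost its call without the second 20 mM or the first 40 mM library (adjusted p = 0.055 and 0.053), and BCL2L11 without the second or the third 20 mM or the first or second 40 mM library (0.064 to 0.11) and with no filter (0.088). Both genes are low: BBC3 averaged 1.56 FPKM at 0 mM, 2.22 at 20 mM and 3.24 at 40 mM. BCL2L11 averaged 0.9999, 1.06 and 1.54 FPKM, so it passed the filter on low values only through its treated libraries. It is among the 7 and the 6 called higher. PMAIP1 (NOXA), a pro-apoptotic BH3 protein, rose by 0.99 ± 0.08 at 20 mM and 0.94 ± 0.08 at 40 mM. PPP1R15A, which also stands in the previous list of brakes, was the highest. ERO1B, an endoplasmic reticulum oxidase, fell by 0.32 at 40 mM (adjusted p = 0.01). The count of 5 was 3 without the second 0 mM library, and the count of 6 was 3 without the second 20 mM or the first 40 mM library.

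Other bZIP genes, relatives of the 6 factors, rose more often than they fell. Of 46 listed, 33 passed the filter on low values, of which 17 were called higher and 0 lower at 20 mM against 0 mM (16.3% and 15.2% of genes tested). The higher dose gave 23 higher and 2 lower (28.8% and 27.4% of genes tested), or 1 lower without the first or second 0 mM or the second 40 mM library. The medians were 0.28 and 0.51. NFIL3, a repressor, rose by 0.92 ± 0.08 and 1.20 ± 0.08, and XBP1, a factor of the unfolded protein response, by 0.78 ± 0.05 and 0.70 ± 0.05. CEBPD, another C/EBP gene, gave 0.53 ± 0.22 at 20 mM (adjusted p = 0.083), 1.66 ± 0.22 at 40 mM (adjusted p = 8.3e-05) and 1.13 ± 0.21 at 40 mM against 20 mM (adjusted p = 0.0033). JUN, a partner of ATF3, gave 0.39 ± 0.17 (adjusted p = 0.1), 1.60 ± 0.17 (adjusted p = 1.8e-05) and 1.21 ± 0.17 (adjusted p = 0.00061) in the same comparisons; DESeq2 called both at 20 mM as well (adjusted p = 0.036 and 0.04). At 20 mM CEBPD was also called without the first 0 mM library (adjusted p = 0.034), and JUN without the third 20 mM library (adjusted p = 0.021). NFE2L3 and CREB3L4 were the 2 lower genes at 40 mM, where NFE2L3 fell by 0.32 and CREB3L4 fell by 0.42; CREB3L4 was named after its value was seen. At 40 mM against 20 mM 15 of the 33 were called higher, against 14.3% of genes tested. The count was 9 without the second 20 mM library, 8 with no filter on low values and 19 with total-count scaling.

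The relatives of TRIB3 and CHAC1 had smaller changes, both ways. TRIB1 gave -0.08 ± 0.06 at 20 mM (adjusted p = 0.29) and 0.06 ± 0.06 at 40 mM (adjusted p = 0.39). TRIB2 fell by 0.25 at 20 mM (adjusted p = 0.015), a call lost without the second 0 mM, the third 0 mM, the first 20 mM or the second 20 mM library (adjusted p = 0.052 to 0.063), and gave -0.12 ± 0.06 at 40 mM (adjusted p = 0.14, and 0.036 without the first 0 mM library). CHAC2, the constitutive glutathione-degrading relative, averaged 14.5 ± 0.776 FPKM at 20 mM and 16.9 ± 0.477 at 40 mM, against 14.0 ± 1.13 at 0 mM, with a log2 fold change of 0.05 ± 0.07 at 20 mM (adjusted p = 0.62) and 0.24 ± 0.07 at 40 mM (adjusted p = 0.016, lost without the third 0 mM library). STK40, a more distant Tribbles relative, rose by 0.45 ± 0.06 and 0.65 ± 0.06. No row was found for NUPR2, the other listed relative, so it was not analysed.

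Genes listed for the other 2 arms of the unfolded protein response, run by ATF6 and XBP1, moved the other way on balance. The list leaves out XBP1 itself, which rose at both doses and was counted with the bZIP genes. It also leaves out DNAJC3, which was called higher at 40 mM and was counted in the eIF2 list. Of the 16 listed genes 9 were called lower and 2 higher at 20 mM against 0 mM, against 15.2% lower and 16.3% higher among genes tested. The higher dose gave 9 lower and 3 higher, against 27.4% and 28.8%, and the medians were -0.19 and -0.22. HSPA5 (BiP), the main chaperone of the endoplasmic reticulum and named after its values were seen, averaged 201.3 ± 1.26 FPKM at 20 mM and 194.3 ± 12.8 at 40 mM, against 256 ± 4.07 at 0 mM (SD, n = 3 each), and fell by 0.35 and by 0.43 on the log2 scale. HSP90B1 (GRP94) fell by 0.41 and by 0.78, and PDIA4, a disulphide isomerase, by 0.30 and by 0.52. HERPUD1, a degradation factor of the endoplasmic reticulum that ATF4 is also known to induce, rose by 0.59 ± 0.06 and 0.79 ± 0.06. Smaller changes were those of EDEM1, a mannosidase-like degradation factor (0.21 ± 0.05 at 20 mM), of the co-chaperone DNAJB9 (0.43 ± 0.15 at 40 mM, adjusted p = 0.028) and of SDF2L1, which fell by 0.36 at 20 mM (adjusted p = 0.049). Of the 3 higher genes at 40 mM 1 was left without the second 0 mM or the first 40 mM library, where EDEM1 and DNAJB9 lost their calls, and SDF2L1 lost its call without any 1 of 5 of the 6 libraries compared.

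**Figure D4:**
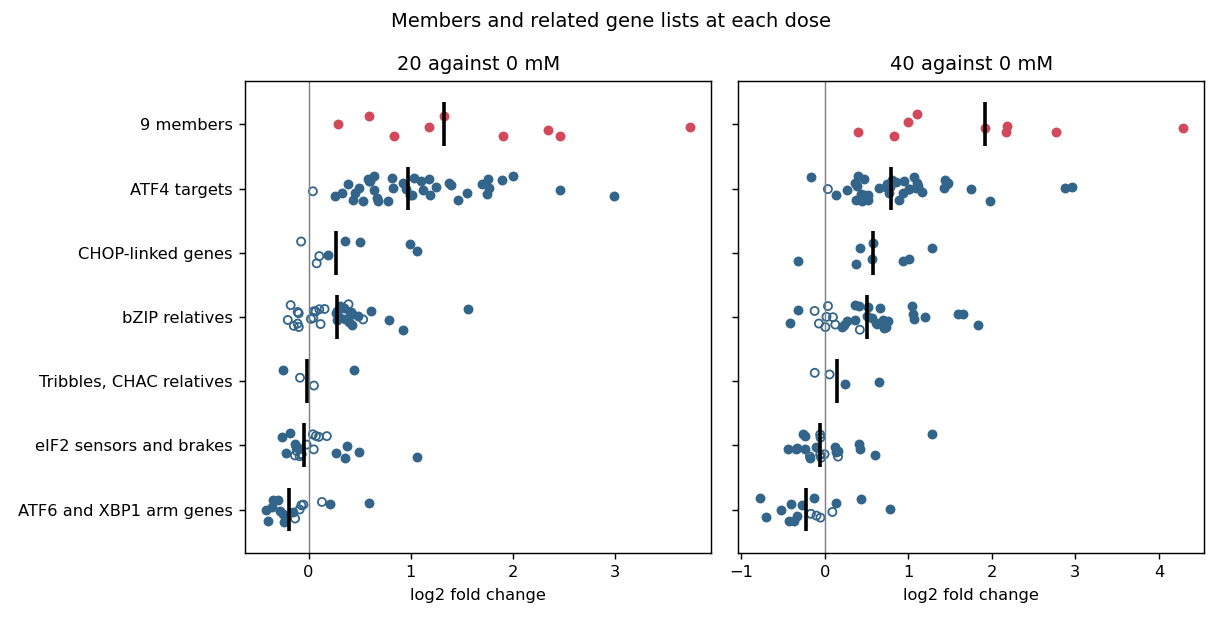
Log2 fold change (x axis) of the 9 genes and of 6 related lists (rows) at 20 mM against 0 mM (left) and 40 mM against 0 mM (right); each point is 1 gene, filled where called and open where not, and the bar is the list's median. The ATF4 targets lie almost wholly above 0, with medians of 0.97 and 0.79, while the eIF2 list and the ATF6 and XBP1 list spread around or below it.

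Likeness between genes was measured as the root mean square difference of their log2 levels over the 9 libraries, each relative to its own 0 mM mean, so that 0 is the same course. Among the 9 the closest were CEBPB and CEBPG (0.24), ATF4 and ATF5 (0.32), ATF5 and CEBPB (0.35) and TRIB3 and CHAC1 (0.36), and the farthest ATF4 and NUPR1 (2.91). Over all tested genes with a mean of at least 5 FPKM, the closest to ATF4 were SHMT2 (0.0485), a mitochondrial serine hydroxymethyltransferase, and MARS1 (0.0528). CEBPG was closest to PSPH (0.0606), the last enzyme of serine synthesis, and GPT2 (0.0712), a mitochondrial alanine transaminase. CEBPB was closest to the transcription factor KLF4 (0.0547) and the chromatin remodeller CHD2 (0.0703), and ATF5 to the mitochondrial release factor MTRF1 (0.0611) and to WASHC2A (0.0798).

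The strongly induced genes had looser matches. DDIT3 was closest to GDF15 (0.30) and S100P (0.36), TRIB3 to SLC6A9 (0.14) and NIBAN1 (0.20), CHAC1 to TRIB3 (0.36) and MAP1B (0.38), and ATF3 to SPANXB1 (0.28) and STC2 (0.32). NUPR1 had no near match: the closest genes were BEST1 at 0.82, whose span overlaps the ferritin gene FTH1 on the other strand, and AL137800 at 1.02. The measure weighs the size of a rise as well as its course, so genes with rises of the same size come out alike.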

How the data were processed

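The authors deposited 1 table, which holds raw counts per gene and FPKM values per the file headers. The submitters' processing notes list StringTie 2.1.6 without its role; aligner, annotation, genome build and strand setting are not given in the sources used. Gene coordinates are those of the deposited table. Libraries were strand-specific poly(A) libraries, per the labels' protocols. The deposited counts were fitted in 1 model over all 9 libraries with edgeR 4.0.16 (R 4.3.3; quasi-likelihood test, TMM scaling) for the 12394 genes with a mean of at least 1 FPKM, with Benjamini-Hochberg adjustment over all of them. Standard errors are the log2 fold change divided by the square root of the F statistic. Alternatives used DESeq2 1.42.0, limma 3.58.1 on log2(FPKM + 1) and log2(FPKM + 0.1), other filters and scalings, and each library left out. The code was tested on simulated data. Named genes were the 9, the relatives of TRIB3, CHAC1 and NUPR1, the 2 largest rises and falls of each list per dose among called genes with at least 5 FPKM and no overlap, and the 2 genes most alike to each member. The members and lists were chosen with earlier results of these data known. Depth limits precision most for NUPR1 at 0 mM, which rests on 99 to 154 counts a library. Promoter letters came from RefSeq windows (GRCh38.p14).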

Additional observations from a re-analysis of the deposited data

How the results depend on the processing

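All 9 genes were called higher at 20 mM and at 40 mM against 0 mM under every alternative that tested them; ATF3 and NUPR1 are not tested with a mean of at least 5 FPKM. Of 667 values of the 9 genes under the alternatives, 652 kept direction and call, 7 lost a call, 5 gained one and 3 changed sign, and these 15 all concern 40 mM against 20 mM. The sign changes are all of TRIB3, which is not called: -0.0015 with no filter and -0.049 to 0.061 when 1 library is left out. The number of the 9 called at this step was 4 to 6 with 1 library left out. With a mean of at least 5 FPKM, fewer genes are tested and the calls over all genes were 2517 at 20 mM against 0 mM, 4245 at 40 mM against 0 mM and 2367 at 40 mM against 20 mM, where the values with the filter of 1 FPKM were 3911, 6962 and 3637. With 1 library left out, the calls at 40 mM against 20 mM ran from 2408 (without the second 20 mM library) to 4065 (without the third 40 mM library). The calls for the departure at 20 mM over all genes are the least firm: 847 in the reported fit, 385 with no filter, 1444 with DESeq2, and 179 (without the second 20 mM library) to 1664 (without the third 40 mM library) with 1 left out, while 7 of the 9 members were called in each of these. The cause was not tested. Replicate numbers do not pair the libraries: correlations of same-numbered deviations ran from -0.10 to 0.19. With the replicate number as a block, 7 of the 9 were called at 40 mM against 20 mM, CEBPB being added (0.17, adjusted p = 0.044), and JUN was called at 20 mM against 0 mM (0.38, adjusted p = 0.011).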

Other observations

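Of the 9 genes, 8 stand together in the Reactome pathway that the deposited table names for the response of EIF2AK1 (HRI) to haem deficiency, which holds 15 genes there. NUPR1 is the exception. The annotation is shared with other sensors: 6 of the 9 stand in the response of EIF2AK4 (GCN2) to amino acid deficiency (100 genes). The pathway of gene regulation by PERK (32 genes) holds 5. The other 7 genes of the HRI pathway are ASNS, EIF2AK1, PPP1R15A, EIF2S1, EIF2S2, EIF2S3 and GRB10. GRB10, an adaptor that binds insulin and growth factor receptors, is on none of the lists used here and was picked after its values were seen. It averaged 5.86 ± 0.331 FPKM at 20 mM and 6.57 ± 0.00535 at 40 mM, against 2.16 ± 0.176 at 0 mM (SD, n = 3 each), with log2 fold changes of 1.43 ± 0.06 (adjusted p = 1.2e-07 by edgeR's quasi-likelihood test) and 1.56 ± 0.06 (adjusted p = 2.8e-08). All 3 libraries of either treated dose were above the 0 mM libraries.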
